A study of Mus musculus with 4 samples.

Results

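Expression of 10 genes that serve RNA control and transposon silencing in germ cells was examined in fetal livers from dams fed a control diet (CD) or a high-fat diet (HFD). The genes were Dazl, Ddx4, Mael, Fkbp6, Piwil2, Piwil4, Tdrd1, Tdrd9, Mov10l1 and Asz1, and every probe whose annotated transcript belonged to one of them was used. Probes were found for 9 of the 10 genes, 13 probes in all, among 56605 probes on the array. No probe matched Piwil4. The genes were chosen from the HFD against CD difference of these same arrays, so their values are a description and carry no p-value.

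RNA of fetal liver at E14.5 was hybridised to 4 single-colour mouse arrays, 2 per diet. The dams were C57BL/6J mice that received, during gestation, either the CD with 4.3% of calories from fat, 19.2% from protein and 67.3% from carbohydrate, or the HFD with 60% from fat, 20% from protein and 20% from carbohydrate. No genotype or drug distinguished the groups, and all 4 samples were labelled female. How many fetuses or dams went into an array, and whether the arrays of a diet came from separate litters, was not given in the sources used here, so the errors below measure only the spread between these samples. All 4 shared 1 slide and 1 scan.

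The labels and the sex-linked transcripts did not match on both replicate 1 arrays. Xist, the RNA that coats the inactive X chromosome, was not well above background on the arrays labelled CD replicate 1 and HFD replicate 1, and stood at 63.7% and 59.8% of the array's 75th-percentile intensity on CD replicate 2 and HFD replicate 2. The Y-linked genes Eif2s3y, Ddx3y, Kdm5d and Uty showed the reverse, at 13.9 to 274% on CD replicate 1 and 15.3 to 359% on HFD replicate 1, against at most 0.937% on CD replicate 2 and 1.25% on HFD replicate 2. Each diet therefore held 1 array with Y-linked transcripts and 1 array with Xist, and differences between arrays of the same number are given beside the pooled differences. All 13 hepatoblast genes, among them Alb and Serpina1a, were well above background on all 4 arrays. So were 72.4% of all genes, and all 10 adrenal cortex and all 13 kidney genes read below. Detection alone therefore does not show which tissue was sampled. Alb stood at 28295% and 53551% in CD and at 37003% and 37233% in HFD.

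In the fetal gonad, germ cells shield their genome from transposons with small RNAs called piRNAs, which guide PIWI proteins to transposon transcripts. The PIWI proteins work together with helicases and Tudor domain proteins in cytoplasmic granules, the nuage. Most of these genes are kept off in somatic tissue by DNA methylation of CpG-rich promoters and by a Polycomb complex that contains E2F6 and the MGA-MAX dimer. Promoters lose this methylation in primordial germ cells, and Dazl, Ddx4 and Mael are textbook examples. In bulk liver RNA, a few cells with much of a transcript and many cells with a little of it cannot be told apart.

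The promoters of Dazl, Ddx4, Mael and Fkbp6 are shown so that their CpG content and the letters bound by such repressors can be read. The arrays measured neither methylation nor binding there. Sequences are from RefSeq on GRCm38.p6, 300 bases each from 250 before to 50 after the transcript start, on the strand of the gene, which was the minus strand for all 4. Capitals mark the E-box CACGTG bound by MGA-MAX and the letters TCCCGC bound by E2F6, on either strand. The windows are chr17:50293571-50293870 for Dazl, chr13:112652261-112652560 for Ddx4, chr1:166238695-166238994 for Mael and chr5:135349995-135350294 for Fkbp6.
Dazl: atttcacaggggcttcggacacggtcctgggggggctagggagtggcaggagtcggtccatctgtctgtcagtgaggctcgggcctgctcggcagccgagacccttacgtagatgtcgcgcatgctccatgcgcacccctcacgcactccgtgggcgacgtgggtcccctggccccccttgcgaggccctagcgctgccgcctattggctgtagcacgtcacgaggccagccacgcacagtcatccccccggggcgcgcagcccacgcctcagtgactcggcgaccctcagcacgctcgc
Ddx4: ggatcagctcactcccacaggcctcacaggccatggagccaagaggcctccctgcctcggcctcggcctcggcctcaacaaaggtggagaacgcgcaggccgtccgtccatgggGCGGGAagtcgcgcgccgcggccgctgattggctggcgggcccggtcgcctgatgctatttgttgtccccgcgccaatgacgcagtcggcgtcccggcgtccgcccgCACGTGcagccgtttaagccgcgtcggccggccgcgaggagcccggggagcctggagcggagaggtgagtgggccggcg
Mael: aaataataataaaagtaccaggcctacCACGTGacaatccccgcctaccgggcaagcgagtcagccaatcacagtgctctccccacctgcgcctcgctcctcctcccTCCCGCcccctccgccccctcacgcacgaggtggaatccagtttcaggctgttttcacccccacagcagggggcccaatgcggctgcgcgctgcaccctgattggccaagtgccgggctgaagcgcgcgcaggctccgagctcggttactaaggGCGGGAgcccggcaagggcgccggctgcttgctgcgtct
Fkbp6: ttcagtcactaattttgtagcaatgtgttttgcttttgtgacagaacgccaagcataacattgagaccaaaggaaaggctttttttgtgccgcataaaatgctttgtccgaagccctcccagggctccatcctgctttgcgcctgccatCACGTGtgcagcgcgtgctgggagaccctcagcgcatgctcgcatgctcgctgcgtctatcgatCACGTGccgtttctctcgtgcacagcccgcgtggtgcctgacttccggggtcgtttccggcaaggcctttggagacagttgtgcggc

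The Ddx4 window held 38 CpG sites, an E-box 29 bases before the start and TCCCGC on the reverse strand 136 bases before it. Mael had 24 CpG sites, an E-box 223 bases before the start, TCCCGC 143 bases before it and the reverse-strand letters 11 bases after it. In Fkbp6, E-boxes lay 101 and 37 bases before this start. The Dazl window held 28 CpG sites and neither set of letters.

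Across the germ cell RNA and piRNA pathway genes, 13 promoters of 9 genes were matched in RefSeq, and Piwil2 had no entry. Their median ratio of observed to expected CpG was 0.78, against 0.384 over 32851 mouse promoters of the same length, and 69.2% of them against 35.8% of all reached a ratio of 0.6. The ratio ran from 0 at one Piwil4 start to 0.994 at one Fkbp6 start, with Ddx4 at 0.978 and Dazl at 0.795. The E-box was found in 8 of 13 promoters (61.5%), against 7.15% of all promoters. Counted once per gene it was in 6 of 9 genes (66.7%), namely Ddx4, Mael, Fkbp6, Mov10l1, Tdrd1 and Tdrd9, against 8.09% of 27025 genes. TCCCGC was found in 2 of 13 promoters (15.4%), those of Ddx4 and Mael, against 20.0% of all. Both sets of letters contain a CpG, some windows of a gene overlap, and a match of letters is a description and not a binding site.

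**Figure D1:**
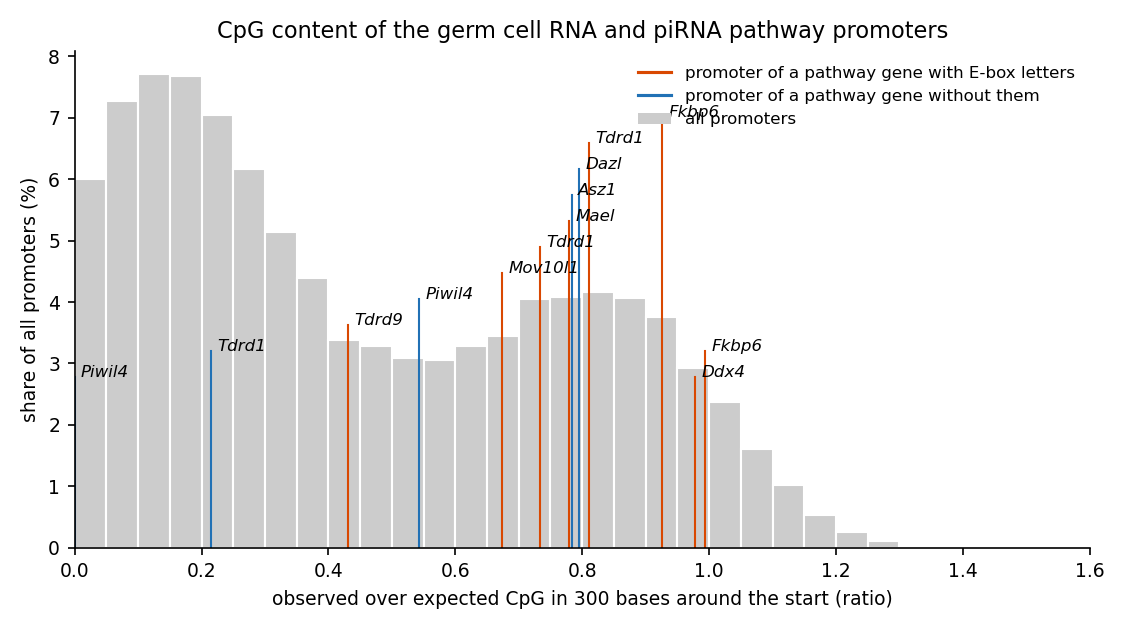
The ratio of observed to expected CpG in the 300 bases around a transcript start (x axis) is shown for all 32851 RefSeq promoters as grey bars (share of promoters in percent, y axis) and for the 13 promoters of the germ cell RNA and piRNA pathway genes as vertical lines, in orange with and in blue without the E-box letters; line height has no meaning and serves only to separate the names. Fkbp6 and Ddx4 lie furthest right, between 0.926 and 0.994, and 1 Piwil4 promoter lies at 0.

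Levels are given as the probe's processed intensity in percent of the 75th percentile of the same array, and differences between diets as log2 of HFD over CD. A spot was read as detected only where the scanner software called it well above background. The dimmest spots so called stood at 1.54% and 2.11% on the CD arrays and at 1.72% and 1.93% on the HFD arrays, so levels near or under these values have no reliable order. Read from its probe with the highest mean level, a gene was so called in 5 of 9 cases on CD replicate 1, in 3 on CD replicate 2, in 5 on HFD replicate 1 and in 5 on HFD replicate 2. Of all 22905 genes, 76.9% were so called on CD replicate 1, 74.0% on CD replicate 2, 75.7% on HFD replicate 1 and 75.1% on HFD replicate 2. Levels of different probes are not compared with each other, since probes differ in their brightness per transcript.

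Mael and the Fkbp6 probe with the lower mean were in the background on both CD arrays and detected on both HFD arrays. Dazl was detected on HFD replicate 1 alone. The Fkbp6 probe with the higher mean and Ddx4 were detected on all 4 arrays, and were 2.26-fold and 1.72-fold higher in HFD. Piwil2 and Mov10l1 were detected on none. Tdrd1 and Asz1, which serve the same pathway, gave HFD values that overlapped with those of CD, and Tdrd9 was detected on 1 CD array alone. The HFD signal was therefore uneven among the genes, and it was also uneven between the 2 HFD arrays.

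Mael, a nuage protein with an HMG box that is required for transposon silencing, stood at 0.361% and 0.966% on the CD arrays and at 5.10% and 2.65% on the HFD arrays. Both HFD spots were called above background and neither CD spot was. Set against the detection limit of the CD arrays, it was at least 2.04-fold higher in HFD. The measured log2 difference of 2.64 (SE 0.59, n = 2 per diet) takes CD values in the background at face value.

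Fkbp6, a relative of the FK506-binding immunophilins that works with a chaperone in loading piRNAs, was read by 2 probes for different transcripts. One probe stood at 3.24% and 2.40% on the CD arrays and at 10.8% and 3.68% on the HFD arrays, well above background on all 4. Its log2 difference was 1.18 (SE 0.57, n = 2 per diet), or 2.26-fold, while the HFD arrays differed from each other by 1.56 on the log2 scale. The difference between diets on this probe was smaller than the spread between the HFD arrays.

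The other Fkbp6 probe stood at 0.718% and 0.714% on the CD arrays and at 3.82% and 2.40% on the HFD arrays. It was in the background on both CD arrays and detected on both HFD arrays, at least 1.68-fold higher. Its measured log2 difference was 2.08 (SE 0.27, n = 2 per diet). Both Fkbp6 probes thus gave higher values on each HFD array than on either CD array.

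Dazl, an RNA-binding protein that controls translation in germ cells, was read by 2 probes of 1 transcript. The probe with the higher mean stood at 0.859% and 1.30% on the CD arrays and at 3.24% and 1.33% on the HFD arrays. The second probe stood at 0.497% and 0.475% on the CD arrays and at 5.77% and 1.90% on the HFD arrays. Both probes were well above background on HFD replicate 1 alone.

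The measured log2 difference was 0.97 (SE 0.50, n = 2 per diet) by the first Dazl probe and 2.77 (SE 0.56, n = 2 per diet) by the second. Against the detection limit of the CD arrays the HFD mean was at least 1.15-fold and 1.84-fold higher, but this mean takes HFD replicate 2, which did not measure Dazl above background, at its face value, so the bound rests on 1 of 2 HFD arrays. The HFD arrays differed from each other by 1.29 and 1.61 on the log2 scale on these probes. Dazl was therefore detected on 1 of 2 HFD arrays and on neither CD array, and the size of its difference depended on the probe.

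Ddx4, the germ cell DEAD-box helicase also known as VASA, stood at 7.60% and 6.73% on the CD arrays and at 15.1% and 9.97% on the HFD arrays. It was well above background on all 4 arrays, the CD arrays included, and the groups did not overlap. Its log2 difference was 0.78 (SE 0.26, n = 2 per diet). The CD arrays lay 0.18 apart and the HFD arrays 0.60 apart on the log2 scale.

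**Figure D2:**
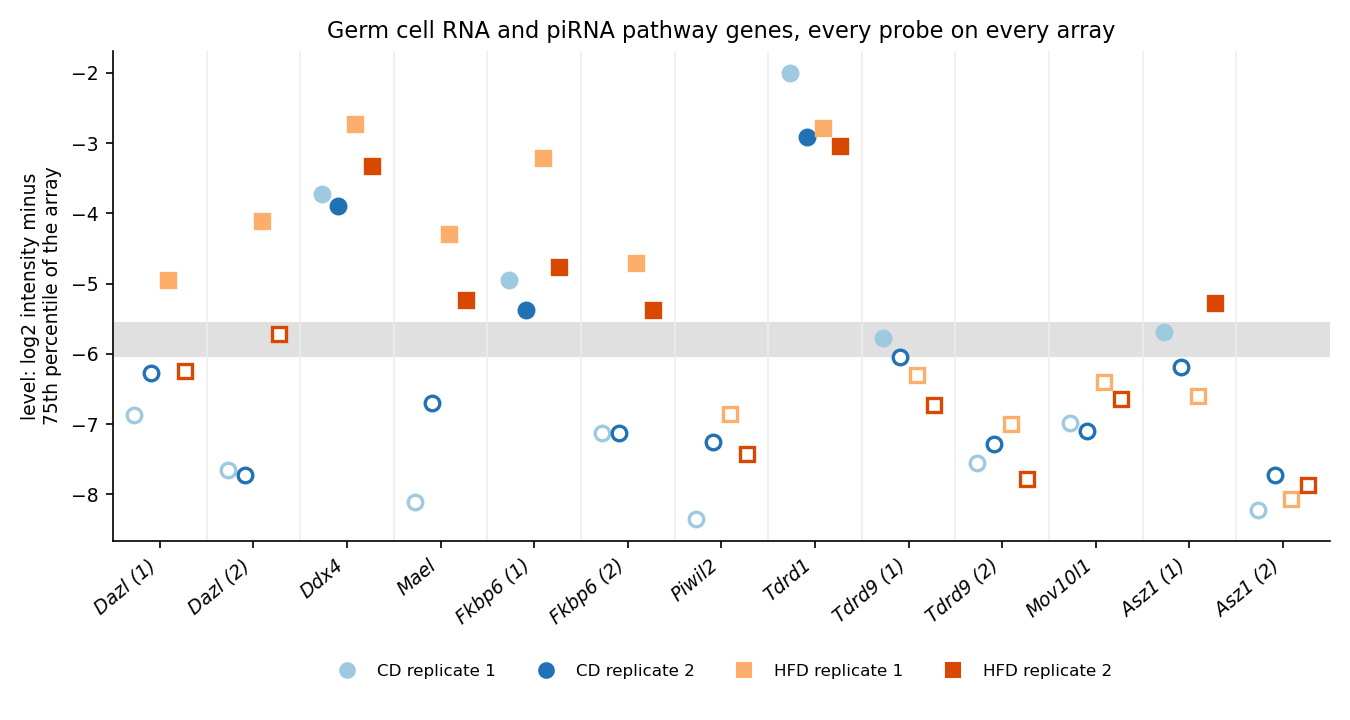
Level of each of the 13 probes on each of the 4 arrays, as log2 intensity minus log2 of the 75th-percentile intensity of that array, with filled symbols for spots well above background, open symbols for spots that were not, and a grey band from -6.02 to -5.56 for the lowest levels so called on the 4 arrays. Mael and the second probes of Dazl and Fkbp6 are open on both CD arrays and highest on HFD replicate 1, while Tdrd1 is filled on all 4 arrays and highest on CD replicate 1.

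Among the PIWI partners, Piwil2, the PIWI protein that binds piRNAs in fetal germ cells, stood at 0.307% and 0.652% on the CD arrays and at 0.863% and 0.580% on the HFD arrays. Mov10l1, the RNA helicase needed to make piRNAs, stood at 0.792% and 0.729% on the CD arrays and at 1.19% and 0.997% on the HFD arrays. Neither gene was well above background on any array, so no fold change is read from them.

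Tdrd1, a Tudor domain scaffold of the nuage, was well above background on all 4 arrays, at 25.0% and 13.2% in CD and at 14.5% and 12.1% in HFD. Its log2 difference was -0.45 (SE 0.36, n = 2 per diet), the groups overlapped, and the highest value was that of CD replicate 1. Without that array the difference was 0.01. Tdrd1 thus did not follow the pattern of Mael, Fkbp6 and Ddx4.

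Tdrd9, a helicase with a Tudor domain that partners Piwil4, stood at 1.84% and 1.51% on the CD arrays and at 1.27% and 0.943% on the HFD arrays by its first probe. It was well above background on CD replicate 1 alone, and no fold change is given, since the other 3 spots, which include both HFD spots, were in the background. The second Tdrd9 probe was in the background on all 4 arrays, at 0.534% and 0.642% in CD and at 0.780% and 0.456% in HFD. Levels in the background give no reliable order of the diets for Tdrd9.

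Asz1, an ankyrin repeat protein that holds the piRNA machinery at mitochondria, stood at 1.94% and 1.37% on the CD arrays and at 1.03% and 2.57% on the HFD arrays by its first probe. It was detected on CD replicate 1 and on HFD replicate 2, and the log2 difference was -0.01 (SE 0.50, n = 2 per diet). The second Asz1 probe was in the background on all 4 arrays, between 0.336% and 0.472%. The range of the first probe within HFD exceeded its range within CD.

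Counted with 1 probe per gene, 5 of the 9 genes had both HFD arrays above both CD arrays, 1 had both below, and 3 overlapped. These counts take spots in the background at face value, Dazl and Mov10l1 among the 5 and Tdrd9 as the 1. Dazl stood at 1.33% on HFD replicate 2 against 1.30% on CD replicate 2, both in the background. Its diets overlapped with quantile normalization and with background correction by normexp. Mov10l1 turned direction with normexp. The median log2 difference of 0.66 was that of Piwil2, which was in the background on all 4 arrays, and is no measure of the detected genes. A filter that removed probes under the 20th percentile of any array left 7 genes, since Mael and Piwil2 were too dim on a CD array. Of these 7, 4 had both HFD arrays above both CD arrays, against 22.9% of 18340 genes tested, and 1 had both below, against 10.2%. Nothing is read from this count of 4, because the same contrast chose the genes. It was 3 genes with quantile normalization and 1 gene, Ddx4, with background correction by normexp.

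At the cutoffs used in the study, an unadjusted p under 0.05 and at least a 2-fold difference, 0 of the 7 tested genes was called higher or lower by its probe with the highest mean, against 0.284% and 0.583% of 18340 genes. Of the 8 tested probes, 1 was called, the second Fkbp6 probe, against 0.284% of 41614 probes called higher. These counts too come from the contrast that chose the genes, and nothing is read from them. Mael, which the percentile filter removed, was called higher with no filter and with a well above background filter. The deposited value table kept Mael, and it was called higher there too. The paper lists Dazl, Mael and Fkbp6 among its upregulated genes. Its log2 values lie close to those measured here by the second Dazl probe (2.77), Mael (2.64) and the second Fkbp6 probe (2.08). The filters used here removed the second Dazl probe, and the count of 0 genes rests on the probes with the highest mean. Without HFD replicate 2 the log2 differences were 1.62 for Dazl, 1.08 for Ddx4 and 1.96 for Fkbp6. After Benjamini-Hochberg adjustment in limma, 0% of the 41614 probes (0 probes) had an adjusted p under 0.05, and the smallest adjusted p was 1.00. At an unadjusted p under 0.05, 1371 probes passed, and 337 of these also differed at least 2-fold, 118 higher and 219 lower in HFD.

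Arrays of the same number were then set against each other, so that Y-linked transcripts were present on both or on neither. Between the arrays with Y-linked transcripts, HFD exceeded CD by 3.82 on the log2 scale for Mael, by 1.74 and 2.41 for the probes of Fkbp6, by 1.92 and 3.54 for those of Dazl and by 0.99 for Ddx4. Between the arrays with Xist, the same differences were 1.45 for Mael, 0.61 and 1.75 for Fkbp6, 0.03 and 2.00 for Dazl and 0.57 for Ddx4. For Mael, Fkbp6 and Ddx4 the differences were above 0 in both comparisons and, at face value, smaller between the arrays with Xist. Mael, the second Fkbp6 probe and both Dazl probes were in the background on both CD arrays. The sizes of the differences for these probes are therefore not reliable. Both Dazl probes were in the background on both arrays with Xist, so the Dazl values there have no reliable order. Whether fetal sex or another property of these arrays set the sizes cannot be told apart with 1 array of each kind per diet.

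Tdrd1 differed by -0.78 between the arrays with Y-linked transcripts and by -0.12 between the arrays with Xist. Asz1 turned direction, at -0.92 between the arrays with Y-linked transcripts and 0.90 between the arrays with Xist. Its spots on HFD replicate 1 (1.03%) and CD replicate 2 (1.37%) were in the background, so these values take background at face value. Over the 9 genes, spots in the background included, the median difference was 0.99 between the arrays with Y-linked transcripts and 0.45 between those with Xist, beside 0.13 and -0.04 over 22905 genes. HFD replicate 1 was above HFD replicate 2 in 8 of the 9 genes, Asz1 being the exception, and in 49.4% of all genes. CD replicate 1 was above CD replicate 2 in 6 of 9, and in 39.4% of all genes.

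**Figure D3:**
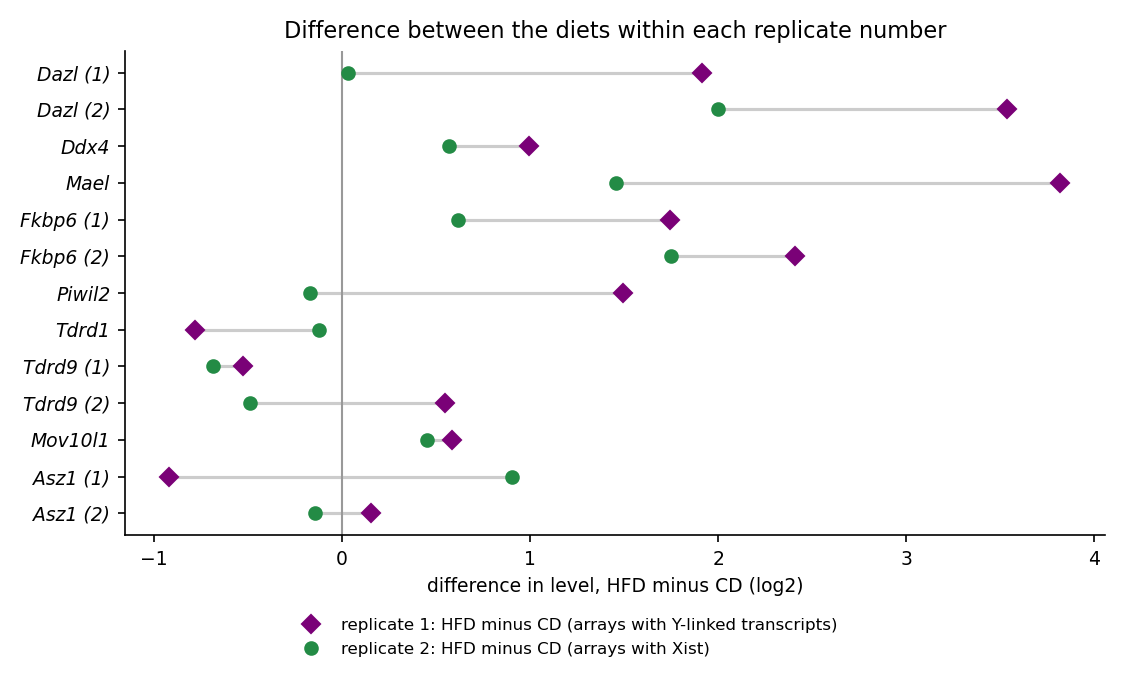
Log2 difference of HFD over CD for each probe, between the arrays that carry Y-linked transcripts (replicate 1) and between the arrays that carry Xist (replicate 2). Mael, Fkbp6 and Ddx4 lie right of 0 in both comparisons, and further right between the replicate 1 arrays, at up to 3.82, while the first probe of Asz1 lies at -0.92 and 0.90. Spots in the background, such as those of Mael on both CD arrays, are taken at face value.

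Other genes of the piRNA pathway gave no calls at the cutoffs. Of 20 such genes 19 had a probe, 6 were well above background on no array and 12 on all 4. Of the 13 tested, 0 passed the cutoffs and 0 had an unadjusted p under 0.05 in limma. Both HFD arrays were above both CD arrays in 4 of the 13 with none below, against 22.9% and 10.2% of 18340 genes tested. Their median log2 difference was 0.19. The probes with the most signal were those of Tdrd7, a Tudor domain protein at log2 0.19, and Prmt5, the arginine methyltransferase that modifies PIWI proteins, at log2 -0.12.

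Other germ cell RNA regulators gave no calls either. Of 16 tested genes 0 passed the cutoffs and 0 had an unadjusted p under 0.05, with a median log2 difference of 0.06. Both HFD arrays were above both CD arrays in 4 of them and below in 1, against 22.9% and 10.2% of 18340 genes tested. The translational repressor Pum2, which somatic tissue also expresses, stood at log2 0.05.

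Germline genes silenced by promoter methylation formed the list closest in kind to Dazl, Ddx4 and Mael. Of 15 such genes 11 were tested. Of the 11 tested, 2 passed the cutoffs and both were higher in HFD, against 0.284% of 18340 genes called higher. Hormad1, which organises the meiotic chromosome axis and was singled out by the study on these samples, stood at 0.501% and 0.695% in CD and at 2.40% and 2.45% in HFD, at least 1.34-fold higher. Tex101, a germ cell surface glycoprotein, stood at 1.52% and 1.57% in CD and at 2.35% and 4.16% in HFD, at least 1.73-fold higher. Both were in the background on both CD arrays and detected on both HFD arrays. Because Hormad1 was chosen on these samples, it is no independent evidence of the direction of its list. Neither was called with background correction by normexp, and Tex101 was also not called without CD replicate 1, without CD replicate 2, without HFD replicate 2, or with scaling to probes well above background on all 4 arrays.

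Within the same list Tex19.1, which restrains retrotransposons in germ cells and placenta, stood at 17.3% and 25.5% in CD and at 60.7% and 31.5% in HFD, a log2 difference of 1.06 (SE 0.40, n = 2 per diet) that did not pass the cutoffs. Taf7l, a germ cell transcription factor subunit, stood at log2 0.03. Over the 15 genes, calls of well above background numbered 14 on the CD arrays and 21 on the HFD arrays. The share of all genes so called, given above, differed little between the diets. Hormad1 and Tex101 were called on both HFD arrays and on no CD array. The other added calls were dim spots. Stk31 and Tex11 were called on HFD replicate 1 alone, at 2.26% and 2.03%, and Sycp3 on HFD replicate 2 alone, at 2.45%. Because the list was drawn up with earlier results known, nothing is read from these counts. The median log2 difference of the 15 genes was 0.51, or 0.33 over the 11 genes tested.

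Of 20 genes of meiotic prophase 16 were tested, of which Hormad1 alone passed the cutoffs, and the median log2 difference was 0.22. Sycp3, which the filter removed, was called higher in the deposited value table, and Sycp3 and Tex12 were called higher with no filter. Of 15 genes of early germ cell identity 13 were tested, and 1 passed, Tfap2c, which trophoblast also expresses. It was lower in HFD at a log2 difference of -1.30 (SE 0.27, n = 2 per diet). Dppa4, which the filter removed, was called higher in the deposited value table and with no filter, where its log2 difference was 1.90. It was detected on HFD replicate 1 alone. Tfap2c was not called with normexp or without HFD replicate 2. The 21 repressors of germline genes, among them the DNA methyltransferases, E2f6, Mga, Cbx3 and Trim28, were all well above background on all 4 arrays. Of the repressors 0 passed the cutoffs and 0 had an unadjusted p under 0.05 in limma, with a median log2 difference of 0.06.

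Several further transcripts were read after their values were seen, because they mark germ cells or gonads of a given sex. Dppa3, a primordial germ cell protein, stood at 1.99% and 0.461% in CD and at 19.9% and 1.96% in HFD, where it was detected on HFD replicate 1 and on CD replicate 1. Amh, the hormone of fetal Sertoli cells, was in the background on both CD arrays and on HFD replicate 2, at 0.341%, 0.482% and 0.435%, and detected on HFD replicate 1 at 2.92%. Stra8, which marks entry into meiosis, stood at 4.08%, 3.30% and 3.49% on CD replicate 1, CD replicate 2 and HFD replicate 1, and at 18.0% on HFD replicate 2. Sycp3, a protein of the synaptonemal complex, was detected on HFD replicate 2 alone, at 2.45%. Dppa3 and Amh were thus highest on the HFD array with Y-linked transcripts, and Stra8 and Sycp3 on the HFD array with Xist. Other genes of the same kinds did not follow this order. Sox9, also of Sertoli cells, was highest on CD replicate 1 at 82.2%, and the meiotic gene Tex11 was detected on HFD replicate 1 alone, at 2.03%. Over the whole lists, HFD replicate 1 was above HFD replicate 2 in 11 of 20 meiotic and 10 of 18 gonad somatic genes. The same held for 11 of 15 early germ cell genes and for 49.4% of all genes. These counts take spots in the background at face value, and no order by sex is read from the picked transcripts.

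Markers of neighbouring tissues were read beside these values. Of 18 genes of gonad somatic cells 17 were tested, and 16 were well above background on all 4 arrays. Of the 17, 1 passed the cutoffs, against 0.284% of 18340 genes called higher. It was Nr5a1, a steroidogenic transcription factor, higher in HFD at a log2 difference of 1.20 (SE 0.31). The median log2 difference over the 18 genes was 0.62. Their summed levels were 4464% and 5496% in CD and 4760% and 5167% in HFD, the brightest probes being those of Foxl2 and Cyp17a1. Without Foxl2, the brightest, they were 2276% and 1331% in CD and 2479% and 2577% in HFD. Amh, a marker of this list, was in the background on 3 arrays. On HFD replicate 1 the median gene of this list stood 0.31 above its own mean over the 4 arrays on the log2 scale, and on CD replicate 2 it stood 0.69 under it.

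Of 10 adrenal cortex genes 2 passed the cutoffs, both higher in HFD, against 0.284% of 18340 genes called higher. They were Nr5a1 and Cyp11a1, the latter the first enzyme of steroid synthesis, at a log2 difference of 1.87 (SE 0.52). The summed levels of the 10 genes were 2635% and 2703% in CD and 2660% and 5525% in HFD. All 10 were lower on HFD replicate 1 than on HFD replicate 2, while 49.4% of all genes were higher there. Of 13 kidney and mesonephros genes 1 passed, against the same 0.284% of all tested genes called higher. It was Cdh16, a kidney cadherin, higher in HFD at a log2 difference of 2.10 (SE 0.69). The kidney list summed to 1235% and 888% in CD and to 1450% and 1379% in HFD.

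Of 15 tested trophoblast genes 11 passed the cutoffs, all lower in HFD, against 0.583% of 18340 genes called lower. The median log2 difference of the list was -4.00. Over the 17 genes with a probe, summed levels were 7066% and 8959% in CD and 4834% and 5060% in HFD. Without Gcm1, the brightest probe of the list, they were 2047% and 7015% in CD and 507% and 213% in HFD. The 13 hepatoblast and 9 erythroid genes gave 0 calls each, with median log2 differences of -0.01 and 0.15. Without CD replicate 2, trophoblast calls numbered 3, and Nr5a1, Cyp11a1 and Cdh16 were not called. Nr5a1 was also not called with normexp or without HFD replicate 2. Without CD replicate 1 the gonad list had 7 calls and the kidney list 3, and without HFD replicate 1 the adrenal list had 7, the kidney list 4 and the gonad list 2, all higher in HFD. With the CV filter on the linear scale, 6 trophoblast genes were tested and 2 were called. The contribution of gonad, adrenal, kidney or placental RNA to the levels of Dazl, Ddx4, Mael and Fkbp6 was not tested.

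**Figure D4:**
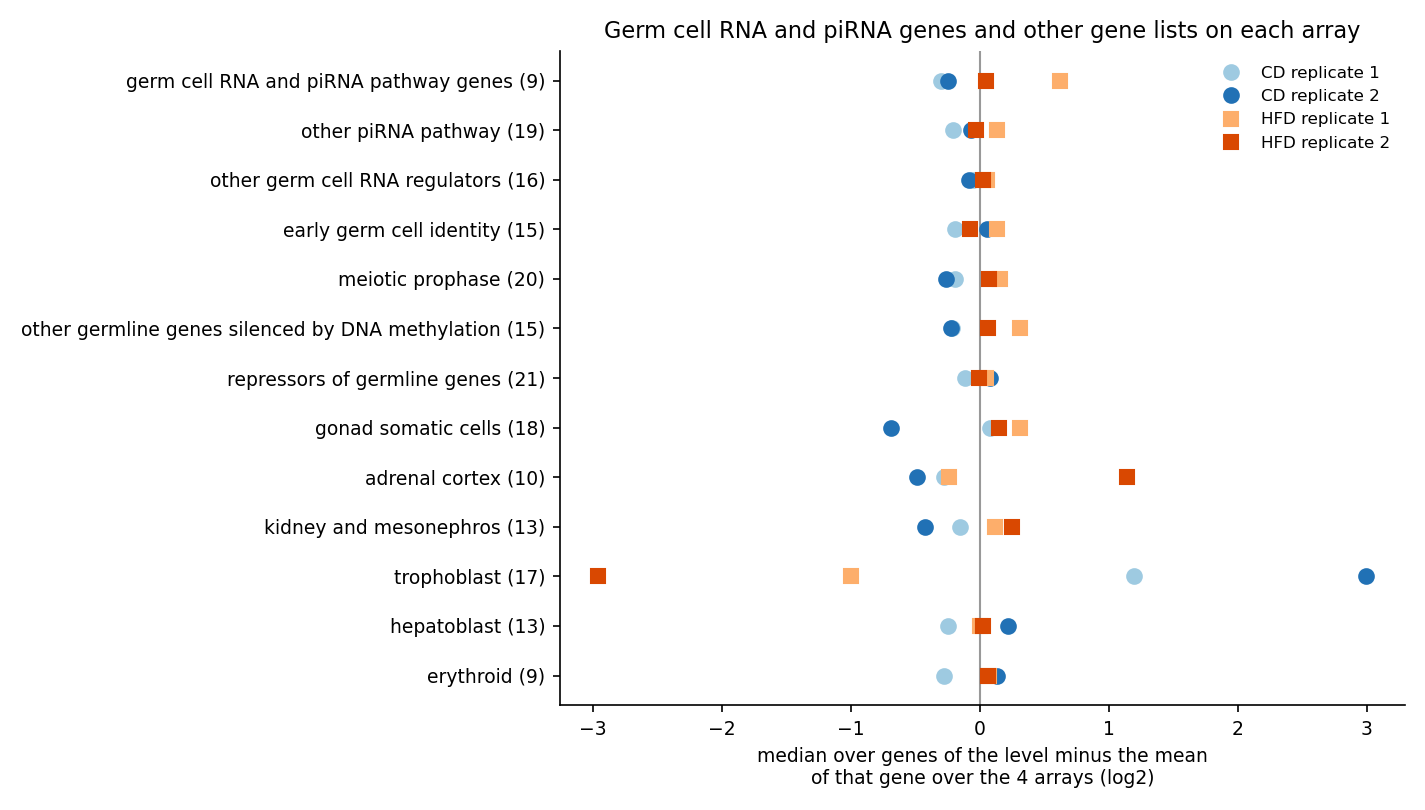
For each gene list (number of genes with a probe in parentheses), the median over its genes of the level on an array minus the mean of the same gene over the 4 arrays, on the log2 scale, with circles for CD and squares for HFD. The germ cell RNA and piRNA pathway genes are highest on HFD replicate 1 (0.62), the adrenal genes on HFD replicate 2 (1.14) and the trophoblast genes on CD replicate 2, with both HFD arrays under 0.

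Outside the 10 genes, those whose centred levels over the 4 arrays lay nearest to those of Dazl were looked up among 16932 genes well above background on both HFD arrays. They were Pga5, at a Euclidean distance of 0.17 on the log2 scale, Tslrn1 at 0.25, Tex19.1 at 0.26, Esx1 at 0.32 and 4933402E13Rik at 0.42. Dazl itself was not well above background on HFD replicate 2. With 4 arrays many genes share an order, and these names only describe likeness over 4 points.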

How the data were processed

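Total RNA of fetal liver was labelled with Cy3 and hybridised to Agilent SurePrint G3 mouse arrays, and the authors read the scans with Feature Extraction 11.0.1.1. In the deposited scanner intensity, background and spatial trends had been removed and arrays were still unscaled. Per the file headers, quality flags are a score of 0 or 1 per spot. The deposited value table holds a linear signal that the authors scaled to the 75th percentile and filtered in GeneSpring, and it served as an alternative.

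Outlier-flagged spots were left out, spots of a probe were averaged, and the log2 of the intensity was centred on the 75th percentile of each array, which was 1072 and 704 in CD and 969 and 908 in HFD. As in the methods, a probe was removed if any array had it under the 20th percentile, or with a CV of the log2 signal over 50% in both groups, which left 41614 of 56605 probes. HFD was set against CD on the 4 arrays by limma 3.58.1 (R 4.3.3) without covariates and with Benjamini-Hochberg adjustment over all probes, and the procedure was tested on simulated data. Values for probes that the filters removed come from the same fit without filters. The small number of arrays limits the precision. A gene was read from its probe with the highest mean level, among 22905 symbols paired with 32981 probes. A fold change was given as a bound wherever a group was not well above background on any array. The bound set the brighter mean against the higher of the probe's own level and the lowest level called well above background. Tables and plots were made with matplotlib 3.10.9, pandas 2.3.3 and numpy 2.4.6 under Python 3.11.15.

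The genes described and the gene lists were chosen with earlier results of these data known. The rule for named genes took the 10 germ cell RNA and piRNA pathway genes, the genes of other lists past the cutoffs, the 2 brightest of each list and the 5 nearest to Dazl. Of these, the called trophoblast genes are given as a count, the brightest genes of the early germ cell, meiotic, adrenal, kidney, trophoblast and erythroid lists are not named, and 1 other gene is not reported here. The gMeanSignal column was not used here, so normexp (offset 50) ran on the median signal. Alternatives covered scaling, background correction, filters, a signal floor of 5, the probe rule, the methods' t-test, a replicate block and each array left out.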

Additional observations from a re-analysis of the deposited data

How the results depend on the processing

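The number of probes past the cutoffs, 337 in limma, was 851 with no filter, 60 with normexp, 97 by the methods' t-test and 697 to 1232 with one array left out, where the lone array of a diet is assumed to vary like the arrays of the other diet. No setting gave an adjusted call except leaving out HFD replicate 1 (26 probes) and the crossed pairing below. Of the 7 tested germ cell RNA and piRNA pathway genes, 4 had both HFD arrays above both CD arrays. This count was 3 with quantile normalization, 1 with normexp and 4 to 5 with one array left out. For single genes, leaving out one array moved the log2 difference of Dazl to 0.33 to 1.62, of Fkbp6 to 0.40 to 1.96, of Ddx4 to 0.48 to 1.08, of Tdrd1 to -0.91 to 0.01 and of Asz1 to -0.67 to 0.65. Normexp gave 0.19 for Dazl, 0.39 for Ddx4 and 0.40 for Fkbp6, against 0.97, 0.78 and 1.18, and the cause was not tested. In the other piRNA pathway and germ cell RNA genes the count of 0 was 0 to 1 with one array left out, the call being Tdrd5 without HFD replicate 2 (log2 1.15). Over the germline and tissue marker lists the 17 calls were 9 with the CV filter on the linear scale and 5 to 29 with one array left out (5 without CD replicate 2, 29 without CD replicate 1 or HFD replicate 1).

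The labels do not say that a replicate number marks a shared litter. The deviations of same-numbered arrays correlated at -0.11 over the tested probes. With a replicate block 462 probes passed the cutoffs, Fkbp6 among them by its probe with the highest mean, and 19 calls were made over the marker lists, Tex19.1 and Dppa5a among them. The crossed pairing, chosen after seeing the data, gave 458 probes and 19 with an adjusted p under 0.05. A slide block was not run, since all arrays lay on 1 slide. With the dimmest detected spots at 1.54 to 2.11% of the 75th percentile, Piwil2 and Mov10l1 were not detectable.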
